A study of Mus musculus with 8 samples.

Results

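The genes described here are 8 genes that mark or govern the lymphoid priming of early blood progenitors in mouse bone marrow: Flt3, Cd34, Cd27, Il7r, Notch1, Dntt, Satb1 and Ikzf1. They were chosen by name, with earlier results of these data known. Counts of them set beside shares of all tested genes are therefore a description. Their Ensembl identifiers were matched to symbols with the GENCODE M21 annotation. They are 8 of 50686 genes in the deposited table, and all 8 were among the 16066 genes that passed the filter on low counts. RNA was sequenced from hematopoietic stem cells (HSCs) of C57BL/6J mice, a wild-type inbred strain, with no treatment or allele named in the labels of these samples. After depletion of lineage-positive marrow cells, sorting used antibodies to CD150, CD48, Sca-1 and CD117, and cell size was read from light scatter. The Small and Large gates took the 10% smallest and the 10% largest cells, the Medium gate took cells within 10% of the mean size, and All was not separated by size. Each of the 4 groups had 2 libraries, numbered 1 and 2 in the labels, from 10000 cells in G0/1 phase each. Neither the age of the mice nor a pooling of animals is given in the sources used here, and libraries of a group are not stated to come from separate animals. The p-values thus reflect no more than the variation among these libraries, part or all of which may be technical.

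The first step from the HSC toward lymphocytes is a multipotent progenitor that displays FLT3, the receptor tyrosine kinase for FLT3 ligand, together with CD34 and CD27 on its surface. In the mouse, long-term HSCs carry little CD34 or FLT3 protein, so both are used to separate them from progenitors that have begun to lose self-renewal. Priming then adds the interleukin-7 receptor (Il7r encodes its alpha chain), NOTCH1, which commits cells to the T lineage when it meets its ligands, and terminal deoxynucleotidyl transferase (Dntt), which inserts untemplated nucleotides at the joints of rearranging antigen receptor genes. SATB1 is a chromatin organiser and IKZF1 (Ikaros) a zinc finger DNA-binding factor. Both are nuclear proteins that lymphoid development in the mouse depends on.

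The genes lie on 8 different chromosomes of GRCm38 and are all protein-coding. Flt3 spans chr5:147330741-147400489, Cd34 chr1:194938819-194961279, Cd27 chr6:125232622-125237010, Il7r chr15:9505788-9530176, Notch1 chr2:26457903-26516663, Dntt chr19:41029275-41059525, Satb1 chr17:51736187-51833290 and Ikzf1 chr11:11685003-11772926. Exons of 3 of them share bases with annotated genes on the opposite strand: Cd34 with Gm16897 (148 bases), Notch1 with 0610009E02Rik (1068 bases) and Gm13568 (414 bases), and Satb1 with Gm6934 (128 bases). The sources used here do not give the strand setting of the counting, so reads from such partners cannot be told apart. These partners had at most 95 counts in any library.

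All 8 genes matched at least 1 promoter window of RefSeq on GRCm38.p6, each covering 250 bases before and 50 bases after a start site, and 13 windows in all. The windows of 4 genes are shown because their levels behave differently below: Flt3 and Cd34 moved together across the libraries, Dntt was the most uneven of the well-measured genes, and Ikzf1 stayed level. CG dinucleotides are in capitals. The windows are chr5:147400440-147400739 (minus strand) for Flt3, chr1:194938571-194938870 (plus strand) for Cd34, chr19:41029025-41029324 (plus strand) for Dntt and chr11:11685675-11685974 (plus strand) for Ikzf1.
Flt3: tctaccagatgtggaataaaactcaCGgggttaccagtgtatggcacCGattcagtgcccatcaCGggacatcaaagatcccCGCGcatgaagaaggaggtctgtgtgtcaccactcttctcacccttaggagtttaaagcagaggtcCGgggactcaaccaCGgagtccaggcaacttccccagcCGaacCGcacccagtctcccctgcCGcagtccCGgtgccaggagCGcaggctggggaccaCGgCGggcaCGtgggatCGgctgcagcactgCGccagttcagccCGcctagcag
Cd34: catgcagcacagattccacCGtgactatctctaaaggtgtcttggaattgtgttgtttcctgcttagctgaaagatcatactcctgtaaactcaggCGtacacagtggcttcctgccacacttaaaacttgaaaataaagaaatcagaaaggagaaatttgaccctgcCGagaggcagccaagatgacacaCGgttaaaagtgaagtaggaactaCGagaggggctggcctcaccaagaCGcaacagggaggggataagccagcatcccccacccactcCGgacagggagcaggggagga
Dntt: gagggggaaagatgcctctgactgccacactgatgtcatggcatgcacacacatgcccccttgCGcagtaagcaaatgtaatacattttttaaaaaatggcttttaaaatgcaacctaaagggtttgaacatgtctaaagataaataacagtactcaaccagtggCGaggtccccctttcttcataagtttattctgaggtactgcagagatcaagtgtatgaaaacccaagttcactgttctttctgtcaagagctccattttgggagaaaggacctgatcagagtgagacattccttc
Ikzf1: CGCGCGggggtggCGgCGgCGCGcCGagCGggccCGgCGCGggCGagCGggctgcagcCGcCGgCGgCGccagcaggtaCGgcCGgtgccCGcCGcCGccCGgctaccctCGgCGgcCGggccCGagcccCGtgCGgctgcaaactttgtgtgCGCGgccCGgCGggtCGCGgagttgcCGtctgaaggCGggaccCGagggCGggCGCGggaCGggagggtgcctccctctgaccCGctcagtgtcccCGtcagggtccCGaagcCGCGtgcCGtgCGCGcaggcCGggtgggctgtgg

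The 4 sequences differ most in their CG content. The Ikzf1 window held 52 CG dinucleotides and was 81.3% G or C, and 99.5% of the 32851 promoters in the table had as few CG or fewer. The Dntt window held 2 and was 42.3% G or C, with 23.3% of promoters at as few or fewer. Flt3 had 18 (61% G or C) and Cd34 had 7 (50% G or C), against a median of 7 CG and 52.7% G or C over all promoters. Of the others, Notch1 had 23, Cd27 had 7 and Il7r had 1. Ikzf1 has another window with 2 CG, and the 5 windows of Satb1 held 3 to 45. In all 13 windows, 4 motifs of 6 letters were searched on both strands with no overlap between matches: CAGNTG, bound by E2A, TGGGAA, the Ikaros core, GAGGAA, the PU.1 core, and TGTGGT, the RUNX core. CAGNTG occurred in windows of Flt3, Cd27, Il7r and Satb1 (51.4% of all promoters hold it), TGGGAA in windows of Satb1 (25.6%), GAGGAA in windows of Satb1 and Notch1 (28.3%), and TGTGGT in the window of Il7r (16.8%). None of the 4 strings occurred in the windows of Cd34, Dntt or Ikzf1, which says only that these letters are not there.

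The libraries held 13698362 to 16838448 estimated counts each. Levels are given in CPM, counts divided by the TMM-scaled library total on the usual common scale, on which the floor of 3 counts is 0.169 to 0.214 CPM. A CPM value states a gene's share of its library and not an amount per cell. In sorted bulk samples, fewer cells of a type and less RNA per cell cannot be told apart. The libraries separated first by replicate number: on the first principal component (39.5% of the variance) those numbered 1 lay at -81.2 to -31.1 and those numbered 2 at 0.98 to 106. Large 2 lay nearest to the other number, and All 2 lay farthest out on both this component and the second, which held 15.6% of the variance. The 12 HSC markers were detected in every library, with a summed level of 741 CPM in Large 1 to 2528 CPM in All 2. Slamf1, which encodes CD150, was low at 7.58 to 22.6 CPM. Ly6a, which encodes Sca-1, had 186 to 366 CPM in the libraries numbered 2 and 20.4 to 90.4 CPM in those numbered 1. The 10 granulocyte and monocyte markers were abundant, with a sum of 3360 CPM in All 2 to 54706 CPM in All 1. The sums were 114 to 989 CPM for 10 T and NK cell markers, of which Nkg7 held 53.1 to 970 CPM, 211 to 885 CPM for 9 dendritic cell markers and 152 to 480 CPM for 8 endothelial markers. Within these 3 lists, Cd3d was at 0 in 1 library, Cd8a in 3, Bcl11b in 5 and Ncr1 in 3. Ccr9 was at 0 in 1 library, Itgax in 4, Xcr1 in 2 and Cdh5 in 2. The other markers of these lists had counts in every library.

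The levels of Flt3, Cd34, Cd27 and Notch1 split by replicate number without overlap, whatever the size gate. Flt3 had 763, 678, 497 and 387 CPM in Small 2, Medium 2, Large 2 and All 2, against 62.8, 47.8, 27.8 and 40.9 CPM in Small 1, Medium 1, Large 1 and All 1. Every library numbered 2 was thus above every library numbered 1, by 9.44-fold in All to 17.8-fold in Large, while within a number the 4 groups spread by 1.97-fold (number 2) and 2.25-fold (number 1). Cd34, a sialomucin of the progenitor surface, had 1276, 1128, 908 and 911 CPM in Small 2, Medium 2, Large 2 and All 2, against 325, 314, 333 and 350 CPM in the same groups numbered 1. The numbers again did not overlap, with ratios of 2.61 to 3.92, and Cd34 was nearly level within number 1, where its highest group exceeded its lowest by 1.11-fold.

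Cd27, a receptor of the tumour necrosis factor family that is engaged by CD70, had 194, 190, 124 and 169 CPM in Small 2, Medium 2, Large 2 and All 2, against 70.9, 74.3, 48.0 and 82.0 CPM in the groups numbered 1. Notch1 had 98.2, 71.5, 55.2 and 40.4 CPM in the groups numbered 2, against 36.0, 8.32, 12.0 and 19.6 CPM in those numbered 1. Number 2 was higher in all 4 groups for both genes, by 2.06- to 2.74-fold for Cd27 and by 2.05- to 8.48-fold for Notch1, with no overlap between the numbers. Satb1 had 84.8, 63.2, 61.2 and 22.9 CPM in the groups numbered 2, against 24.3, 10.9, 16.8 and 14.8 CPM in those numbered 1. It was higher with number 2 in every group, by 1.55-fold in All and by up to 5.72-fold in Medium, and overlapped only through All 2, which lay below Small 1.

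Dntt had 232, 257, 384 and 13.9 CPM in Small 2, Medium 2, Large 2 and All 2, against 43.0, 20.3, 8.36 and 11.8 CPM in the groups numbered 1. The 3 size gates of number 2 were far above all other libraries, by up to 45.2-fold between Large 2 and Large 1, whereas the unfractionated libraries differed by 1.17-fold. Il7r was close to the detection limit, with 32, 12, 171 and 1 counts in Small 2, Medium 2, Large 2 and All 2, against 14, 2, 1 and 15 counts in the groups numbered 1. Its 11.2 CPM in Large 2 stood alone, since all other libraries had 2.28 CPM or less and 3 of them had at most 2 counts. Ikzf1 showed no split by number, with 70.3, 65.6, 58.0 and 70.1 CPM in the groups numbered 2, against 70.0, 59.0, 71.2 and 66.4 CPM in those numbered 1. All its 8 values lay within 58.0 to 71.2 CPM.

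**Figure D1:**
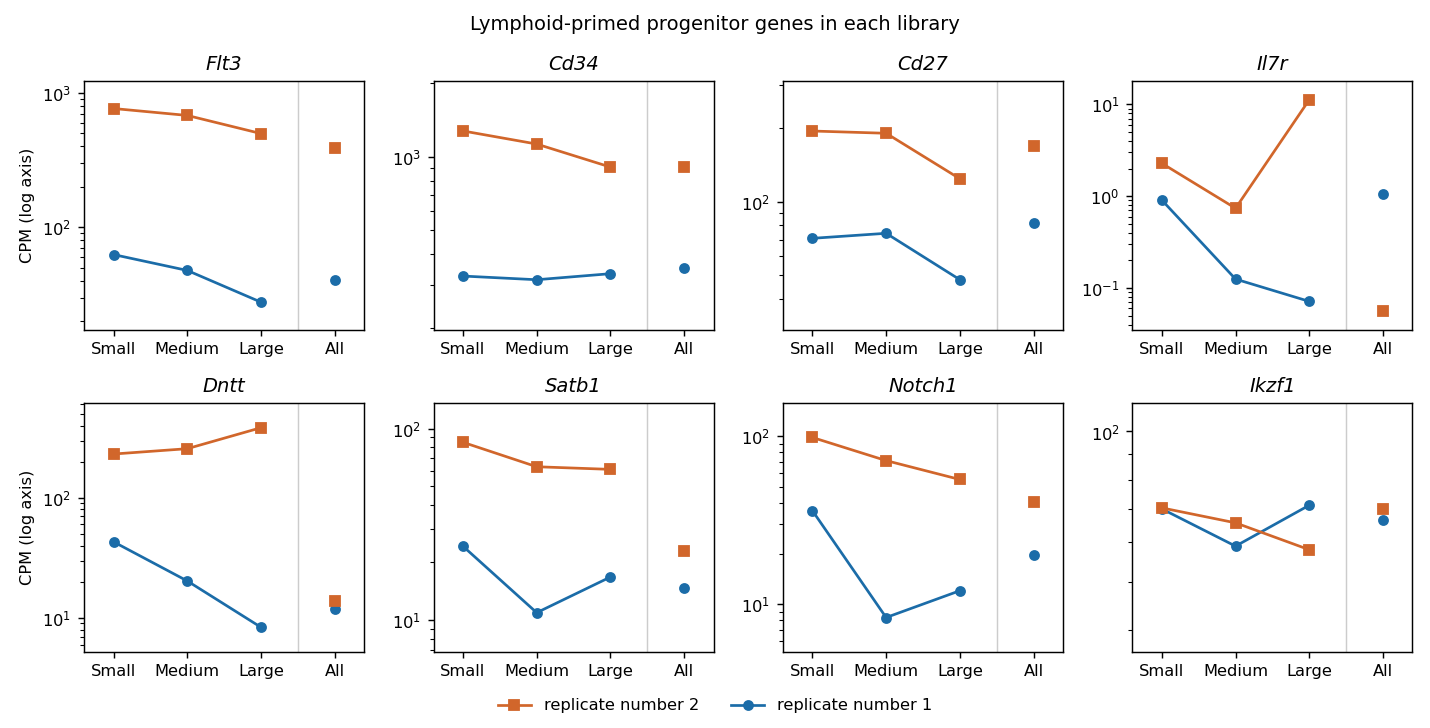
Level of each of the 8 genes (CPM, log axis with its own range per gene) in Small, Medium, Large and All libraries, with squares for replicate number 2 and circles for number 1, and lines joining the 3 size gates of a number. The squares of Flt3, Cd34, Cd27 and Notch1 lie above all circles, Dntt in All 2 lies near All 1, and Ikzf1 stays between 58.0 and 71.2 CPM.

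Of the 8 genes, 4 had all libraries numbered 2 above all numbered 1 (Flt3, Cd34, Cd27 and Notch1), against 11.6% of all tested genes, and none had the reverse, against 9.19%. The mean difference was over 1 on the log2 scale for 7 of 8, all but Ikzf1, against 11.9% of tested genes. The replicate number is a label with no stated meaning, so no test was made of this contrast. Markers of other cells moved with it. Of the 10 granulocyte and monocyte markers, 5 had all libraries numbered 2 below all numbered 1, and their sum was 12155, 8003, 22248 and 3360 CPM in Small 2, Medium 2, Large 2 and All 2, against 43360, 23823, 44356 and 54706 CPM in the groups numbered 1. Of the 12 HSC markers, 3 had all libraries numbered 2 above all numbered 1, and the sum was 2421, 1959, 1392 and 2528 CPM in the groups numbered 2, against 1368, 1309, 741 and 1223 CPM in those numbered 1. Whether these cells or their RNA had a part in the difference was not tested.

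**Figure D2:**
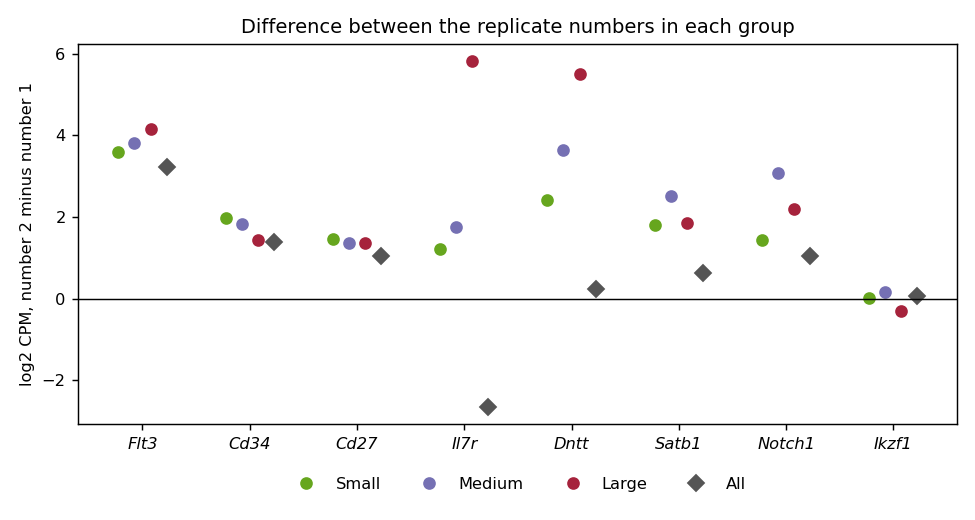
Difference in log2 CPM between replicate number 2 and number 1 (vertical axis) for each gene and group, with circles for Small, Medium and Large and diamonds for All. Flt3 lies at 3.24 to 4.15 in every group, Ikzf1 at -0.30 to 0.15, and Dntt and Il7r spread widely between groups.

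The comparison of Large with Small HSCs asks how the RNA of sorted bulk samples differs between the largest and the smallest cells. Within each number, Large HSCs had lower levels of Flt3, Cd27, Satb1 and Notch1 than Small HSCs. Differences here are in log2 CPM with a prior count of 2, and are a description of each pair of libraries. Flt3 was lower in Large by 2.25-fold within number 1 (log2 -1.17) and by 1.53-fold within number 2 (log2 -0.62). Notch1 was lower by 2.97-fold and 1.78-fold (log2 -1.57 and -0.83). Cd27 was lower by 1.47-fold and 1.57-fold (log2 -0.56 and -0.65), and Satb1 by 1.44-fold and 1.38-fold (log2 -0.53 and -0.47), so these 2 genes differed by nearly the same amount in both numbers.

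Cd34 was level within number 1 (log2 0.03) and lower in Large within number 2 (log2 -0.49). Dntt went in opposite directions, 5.08-fold lower in Large within number 1 (log2 -2.35) and 1.66-fold higher within number 2 (log2 0.73), and so did Il7r (log2 -2.36 and 2.24, the lower value resting on 1 count in Large 1 and 14 in Small 1). Ikzf1 differed by 0.02 and -0.28. Lower levels within both numbers were thus seen for 4 of 8 genes, against 30.9% of all tested genes, and higher levels within both for 0 of 8, against 32.9%. For 0 of 8 did the Large libraries lie wholly below the Small ones, against 14.7% of tested genes, or wholly above, against 17.7%. For Flt3, Cd34, Cd27 and Notch1 this outcome was fixed, because every library numbered 2 lay above every library numbered 1. The same holds for these 4 genes in every pair of groups.

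None of the 8 passed edgeR's quasi-likelihood test with group as the only term. Flt3 averaged 262 ± 332 CPM in Large and 413 ± 495 CPM in Small (SD, n = 2 each). Cd27 averaged 86.1 ± 53.8 CPM in Large and 133 ± 87.3 CPM in Small. For both genes the spread between libraries exceeded the difference. This spread holds their split by number, for which the fit had no term. Fits with such a term are given in the last section. Ikzf1 averaged 64.6 ± 9.33 CPM in Large and 70.2 ± 0.227 CPM in Small. The fitted log2 fold change of Large over Small was -0.65 for Flt3 (SE 1.81), -0.37 for Cd34 (SE 0.89), -0.62 for Cd27 (SE 0.72), -0.997 for Notch1 (SE 1.09), -0.48 for Satb1 (SE 0.97), 0.51 for Dntt (SE 1.64), 1.82 for Il7r (SE 1.93) and -0.12 for Ikzf1 (SE 0.20). The 95% interval of the Flt3 change ran from -4.95 to 3.64, so neither a large decrease nor a large increase lies outside it, whereas that of Ikzf1 ran from -0.60 to 0.36. Benjamini-Hochberg adjusted p-values of the 8 genes in edgeR's test were 0.975 to 0.982. The test called 0 of 16066 genes (0%), with 506 at an unadjusted p under 0.05 (3.15%) and none of them among the 8, while DESeq2 called 12 genes and limma-trend on log2(TPM + 1) called 1. An exact permutation test of 2 against 2 libraries cannot give a two-sided p under 0.333. The signs of 7 of the 8 fitted changes, all but that of Notch1, turned when a single library was left out. Leaving out a Small or Large library leaves that gate with a single number. The change then also holds the difference between the numbers. Without Small 2 the changes were 2.06 for Flt3, 0.93 for Cd34, 0.28 for Cd27 and 0.68 for Satb1. Without Large 1 they were 0.24 for Flt3, 0.16 for Cd34 and 0.14 for Satb1. Without Large 2 they were -4.04 for Dntt, -4.33 for Il7r and 0.02 for Ikzf1, and without Small 1 the Dntt change was -0.24.

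Most markers of the HSC list were also lower in Large. Of the 12 HSC markers, 9 were lower in Large within both numbers and 0 higher, against 30.9% and 32.9% of all tested genes. Their sum was 741 and 1392 CPM in Large 1 and 2, against 1368 and 2421 CPM in Small 1 and 2. The largest part of this sum was Kit, which encodes the sorted antigen CD117. Kit had 513 and 699 CPM in Large 1 and 2, against 852 and 1196 CPM in Small 1 and 2. Granulocyte and monocyte markers summed to 44356 and 22248 CPM in Large 1 and 2, against 43360 and 12155 CPM in Small 1 and 2. Within both numbers 5 of 10 were higher in Large and 0 lower. Their part in the lower levels of Flt3, Cd27, Satb1 and Notch1 was not tested.

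The Medium gate placed the genes along the size series. Flt3 was ordered Small, Medium, Large from high to low in both numbers, with Large below Medium by 1.72-fold within number 1 and 1.36-fold within number 2 (log2 -0.78 and -0.45) and Medium below Small by 1.31-fold and 1.13-fold (log2 -0.39 and -0.17). Cd27 was level between Medium and Small (log2 0.07 and -0.03) and lower in Large than in Medium (log2 -0.63 and -0.62). Large was the lowest of the 3 gates in both numbers for these 2 of the 8 genes, Flt3 and Cd27, as it was for 16.8% of all tested genes. They were also the 2 of 8 that were lower in Large than in Medium within both numbers, against 33.0% of tested genes, while 0 of 8 were higher within both, against 32.9%. The Large and Medium libraries overlapped for all 8, as the split by number made certain for Flt3, Cd34, Cd27 and Notch1. Large lay wholly below Medium for 17.2% of tested genes and wholly above for 18.3%. In the same comparison, 10 of 10 granulocyte and monocyte markers were higher in Large within both numbers, 10 of 12 HSC markers were lower and 0 higher, and 7 of 8 endothelial markers were lower and 0 higher. Granulocyte and monocyte markers summed to 44356 and 22248 CPM in Large 1 and 2, against 23823 and 8003 CPM in Medium 1 and 2, HSC markers to 741 and 1392 CPM, against 1309 and 1959 CPM, and endothelial markers to 152 and 334 CPM, against 279 and 444 CPM. Their part in the lower Flt3 and Cd27 levels was not tested.

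Notch1 and Satb1 showed another order. Medium was below Small within both numbers, by 4.27-fold and 1.37-fold for Notch1 (log2 -2.10 and -0.46) and by 2.21-fold and 1.34-fold for Satb1 (log2 -1.14 and -0.42). Between Large and Medium they went in opposite directions in the 2 numbers, at 0.52 and -0.37 for Notch1 and 0.61 and -0.05 for Satb1. In all, 6 of 8 genes were lower in Medium than in Small within both numbers, against 29.3% of tested genes. These were Flt3, Cd34, Il7r, Satb1, Notch1 and Ikzf1, with Cd34 at only log2 -0.05 and -0.18 and Il7r close to the detection limit. Higher within both were 0 of 8, against 30.1%. Il7r and Ikzf1 were the 2 of 8 with both Medium libraries below both Small ones, against 14.3%: Il7r had 0.125 and 0.739 CPM in Medium 1 and 2, against 0.908 and 2.28 CPM in Small 1 and 2, and Ikzf1 had 59.0 and 65.6 CPM, against 70.0 and 70.3 CPM. None lay wholly above, against 16.6%. Flt3, Cd34, Cd27 and Notch1 could lie neither wholly above nor wholly below, given their split by number. Other markers moved here too: 9 of 10 granulocyte and monocyte markers were lower in Medium within both numbers and 0 higher, while 6 of 8 endothelial and 6 of 9 tested B cell markers were higher. Granulocyte and monocyte markers summed to 23823 and 8003 CPM in Medium 1 and 2, against 43360 and 12155 CPM in Small 1 and 2, endothelial markers to 279 and 444 CPM, against 219 and 426 CPM, and B cell markers to 62.6 and 144 CPM, against 57.2 and 85.0 CPM. Their part in the lower levels in Medium was not tested. No gene of the 8 passed edgeR's test in either comparison (adjusted p of 0.989 to 0.997 for Large against Medium and 1 for Medium against Small). edgeR called 0 of 16066 genes (0%) in both. At an unadjusted p under 0.05 it had 301 genes (1.87%) for Large against Medium and 695 (4.33%) for Medium against Small, none of them among the 8. DESeq2 called 2 genes and 46 genes in these comparisons, and limma-trend called 1 and 0.

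**Figure D3:**
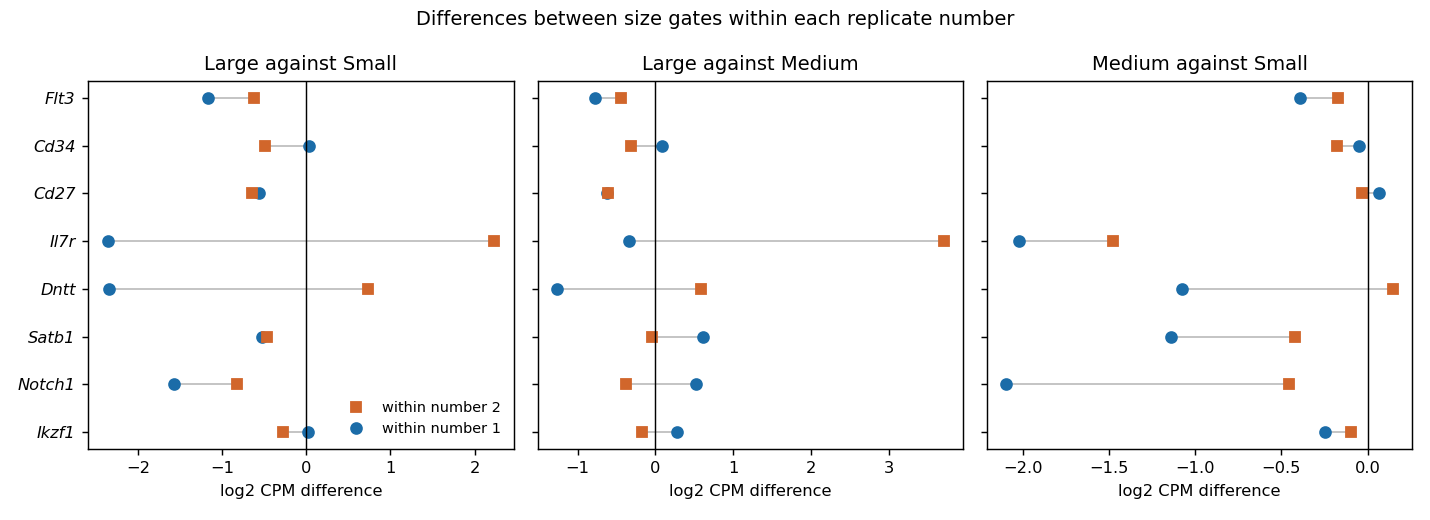
Log2 CPM difference between size gates (horizontal axis, prior count 2) for each gene, within replicate number 2 (squares) and within number 1 (circles), with a panel per pair of gates. Both symbols lie left of 0 for Flt3, Cd27, Satb1 and Notch1 in Large against Small, while Il7r and Dntt lie on opposite sides of 0.

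Set against unfractionated HSCs, Dntt differed most among the genes well above the floor. Within number 2 it was higher in Small, Medium and Large than in All by 16.5-, 18.3- and 27.4-fold (log2 4.05, 4.19 and 4.77), and within number 1 by 3.61-fold in Small and 1.71-fold in Medium, with Large below All (log2 -0.50). Both Small libraries and both Medium libraries lay above both All libraries. Fitted log2 fold changes over All were 3.41 for Small (SE 1.81), 3.43 for Medium (SE 1.81) and 3.93 for Large (SE 1.85). None passed edgeR's test (unadjusted p = 0.102, 0.101 and 0.0723, and Benjamini-Hochberg adjusted p = 1, 1 and 0.885), although with no filter on low counts edgeR called all 3, at 3.47, 3.44 and 3.96, and limma-trend on log2(TPM + 1) put them at 2.88, 2.38 and 2.00 with none called. Without All 2 the 3 changes were 3.54, 3.55 and 4.05. Without the gate's own library numbered 2 they were 1.74 for Small, 0.71 for Medium and -0.62 for Large. These last values set the gate's library numbered 1 against both All libraries.

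Satb1 had 24.3 and 84.8 CPM in Small 1 and 2, against 14.8 and 22.9 CPM in All 1 and 2, without overlap, and Large was above All within both numbers (log2 0.18 and 1.41). Notch1 was higher in Small than in All within both numbers by 1.83-fold and 2.42-fold, and Flt3 by 1.53-fold and 1.97-fold. Cd34 and Cd27 were lower in Large than in All within both numbers, slightly for Cd34 (log2 -0.07 and -0.01) and more for Cd27 (log2 -0.77 and -0.45). Higher levels in Small than in All within both numbers were found for 5 of 8 genes, against 26.7% of tested genes. These were Flt3, Notch1, Dntt, Satb1 and Ikzf1, with Ikzf1 higher by only log2 0.08 and 0.005. Both Small libraries lay above both All libraries for 2 of 8, Dntt and Satb1, against 12.0%. None of the 8 was lower within both numbers (31.3% of tested genes) or wholly lower (14.8%). In Medium, 2 of 8 (Flt3 and Dntt) were higher than in All within both numbers, against 24.6%, and 1 of 8 (Ikzf1) was lower, against 24.9%. Dntt lay wholly above All in Medium, as did 11.3% of tested genes, and Ikzf1 wholly below, as did 11.2%. In Large, 1 of 8 was higher (Satb1), against 31.2%, and 2 of 8 were lower (Cd34 and Cd27), against 32.6%. None of the 8 lay wholly above All in Large (15.8% of tested genes) or wholly below (16.2%). Flt3, Cd34, Cd27 and Notch1 could not lie wholly above or below All in any gate, given their split by number. The 3 comparisons share the All libraries. edgeR's test called 0 of 16066 genes (0%) in each, with 637 (3.96%), 262 (1.63%) and 504 (3.14%) at an unadjusted p under 0.05 for Small, Medium and Large and none of them among the 8. DESeq2 called 28, 6 and 8 genes, and limma-trend called 0, 0 and 1. Markers of other cells moved with these contrasts. The summed granulocyte and monocyte markers were lowest in All 2, at 3360 CPM, yet highest in All 1, at 54706 CPM. Of the 10 markers, 5, 2 and 5 were higher in Small, Medium and Large than in All within both numbers. Lower within both were 0, 1 and 0. Mpo had 3462 CPM in Small 2, 2404 CPM in Medium 2 and 7201 CPM in Large 2, against 132 CPM in All 2. In Small 1, Medium 1 and Large 1 it had 13617, 5516 and 16527 CPM, against 5276 CPM in All 1. Of the 12 HSC markers, 9 were lower in Small than in All within both numbers and 2 were higher, and 11 were lower in Large than in All and 0 higher. Their sum was 1368 and 2421 CPM in Small 1 and 2 and 741 and 1392 CPM in Large 1 and 2, against 1223 and 2528 CPM in All 1 and 2. The part of these markers' cells in the differences from All was not tested.

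Dntt and Il7r were highest in Large 2, and so were most genes of the B cell marker list. Of the 10 B cell markers, 9 were tested, and their summed level was 57.2 and 85.0 CPM in Small 1 and 2, 62.6 and 144 CPM in Medium 1 and 2, 41.0 and 344 CPM in Large 1 and 2, and 62.3 and 76.7 CPM in All 1 and 2. Igll1, a part of the surrogate light chain of the pre-B cell receptor, had 75.5 CPM in Large 2 and 1.14 to 15.9 CPM elsewhere. Cd79a, a signalling chain of the B cell receptor, had 64.8 CPM in Large 2 and 2.07 to 17.4 CPM elsewhere.

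Ebf1, a transcription factor that specifies B cells, had 10.4 CPM in Large 2 and 0.715 to 2.59 CPM in the other 7 libraries. Rag1, which with Rag2 cuts DNA for antigen receptor rearrangement, had 56 counts (3.68 CPM) in Large 2 and at most 0.500 CPM elsewhere, with 4 libraries at 0. Pax5, the factor that fixes B cell identity, had 2.43 CPM in Large 2 and was at 0 in Small 1, Large 1 and All 1. Ms4a1, which encodes CD20 of mature B cells, did not follow them, at 0.263 CPM in Large 2 and 0.214 to 2.25 CPM in the others, nor did Cd79b, the other signalling chain of the B cell receptor, at 57.0 CPM in Large 2 and 57.3 CPM in Medium 2. Dntt differed from this set in number 2, where Small 2 and Medium 2 already had 232 and 257 CPM. Whether B-lineage cells had a part in the Il7r and Dntt values of Large 2 was not tested.

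**Figure D4:**
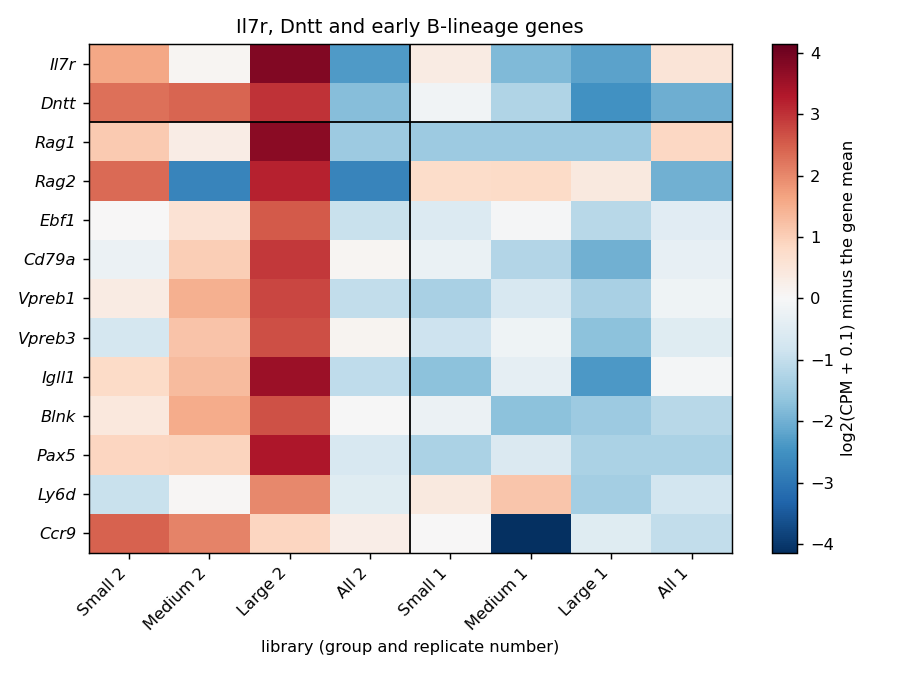
Levels of Il7r, Dntt and other early lymphoid and B-lineage genes in the 8 libraries, as log2(CPM + 0.1) minus each gene's mean (color), with libraries numbered 2 on the left and those numbered 1 on the right. Large 2 is darkest red for Il7r and most B-lineage genes, and Dntt is also red in Small 2 and Medium 2.

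The wider pathways were read in Large against Small over lists of their textbook parts, which do not include the 8 genes themselves. These lists too were chosen with earlier results of these data known. No gene of any list passed edgeR's test. Over all tested genes, 30.9% were lower in Large within both numbers and 32.9% were higher, and each list's counts stand beside these shares. For the FLT3 pathway, 10 of 17 genes were lower in Large within both numbers and 0 higher, with a median fitted log2 change of -0.18, against 0 over all tested genes. Syk, a cytoplasmic tyrosine kinase, had 106 and 141 CPM in Large 1 and 2, against 187 and 201 CPM in Small 1 and 2. Shc1, an adaptor of receptor tyrosine kinases, had 147 and 163 CPM in Large, against 176 and 175 CPM in Small, and Pik3r1, a regulatory subunit of PI3-kinase, had 104 and 174 CPM, against 89.2 and 221 CPM.

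For the interleukin-7 receptor pathway, 9 of 12 genes were lower in Large within both numbers and 3 were higher, with a median of -0.50. Stat5a, a transcription factor activated by both the interleukin-7 receptor and FLT3, is listed under both, as is Stat5b. Stat5a had 75.9 and 75.4 CPM in Large 1 and 2, against 118 and 129 CPM in Small 1 and 2. Jak1, a kinase of cytokine receptors, had 307 and 412 CPM in Large, against 374 and 575 CPM in Small. Il2rg, the receptor chain shared by several interleukins, had 142 and 415 CPM in Large, against 177 and 593 CPM in Small. Ptpn2, a phosphatase that acts on JAK kinases, went the other way, with 101 and 90.7 CPM in Large, against 67.9 and 73.4 CPM in Small. The receptor chain Il2rg thus kept the split by number that Il7r lacked.

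For the Notch pathway, 29 of 31 listed genes were tested, of which 17 were lower in Large within both numbers and 2 were higher, with a median of -0.28. Notch2, another receptor of the family, had 35.0 and 65.0 CPM in Large 1 and 2, against 77.3 and 131 CPM in Small 1 and 2. Adam10, the protease that sheds the Notch ectodomain, had 235 and 228 CPM in Large, against 241 and 315 CPM in Small. Ncstn, a subunit of gamma-secretase, had 130 and 145 CPM in Large, against 158 and 188 CPM in Small, and Spen, a corepressor, had 41.9 and 38.6 CPM, against 59.2 and 54.3 CPM. Among targets of Notch signalling, Nrarp had 7.51 to 31.3 CPM and Hes1 1.07 to 7.70 CPM over the 8 libraries, Dtx1 was at 0 in all 8 and Heyl was at 0 in 5. Of the ligands, Dll1 was at 0 in Large 1 and All 2.

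The lists around Ikaros and antigen receptor recombination did not lean one way. For Ikaros relatives and the NuRD chromatin remodelling complex, 6 of 17 genes were lower in Large within both numbers and 7 higher, with a median of -0.02. Rbbp7 and Rbbp4, histone-binding NuRD subunits, had 832 and 911 CPM and 804 and 775 CPM in Large 1 and 2, against 622 and 660 CPM and 653 and 490 CPM in Small 1 and 2. For V(D)J recombination and end joining, 4 of 15 tested genes were lower and 6 higher, with a median of 0.17. Prkdc, the catalytic subunit of DNA-dependent protein kinase, had 41.6 and 32.8 CPM in Large 1 and 2, against 14.8 and 18.7 CPM in Small 1 and 2, and Xrcc6, its Ku partner, had 168 and 190 CPM, against 136 and 146 CPM. The DNA-bending proteins Hmgb1 and Hmgb2, cofactors of the RAG recombinase, had 888 and 750 CPM and 804 and 588 CPM in Large, against 658 and 546 CPM and 576 and 250 CPM in Small.

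For CD27 signalling, 4 of 10 tested genes were lower in Large within both numbers and 2 higher, against 30.9% and 32.9% of all tested genes. The list's median was -0.33 in the fit, 0.27 within number 1 and -0.59 within number 2. Siva1, a protein that binds the CD27 tail, had 181 and 138 CPM in Large 1 and 2, against 93.6 and 60.2 CPM in Small 1 and 2, whereas the kinase Map3k14 had 3.07 and 4.54 CPM, against 7.91 and 13.6 CPM. Birc2, a ubiquitin ligase of this pathway, had 84.9 and 107 CPM in Large, against 69.4 and 146 CPM in Small. The CD27 ligand gene Cd70 was at 0 in 7 of 8 libraries. Of 4 relatives and partners of CD34, 2 were lower in Large within both numbers and 0 higher, with a median of -0.15, both being adaptors: Crkl had 51.1 and 53.8 CPM in Large, against 81.4 and 59.1 CPM in Small, and Crk had 76.8 and 71.7 CPM, against 78.4 and 104 CPM. Of 19 other tested lymphoid-priming genes, 6 were lower within both numbers and 3 higher, with a median of 0.03. Il2rg and Rag2 among them are also counted in the interleukin-7 receptor and V(D)J lists. Bcl11a, a transcription factor needed for B cell development in the mouse, had 66.3 and 65.4 CPM in Large 1 and 2, against 82.1 and 103 CPM in Small 1 and 2.

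**Figure D5:**
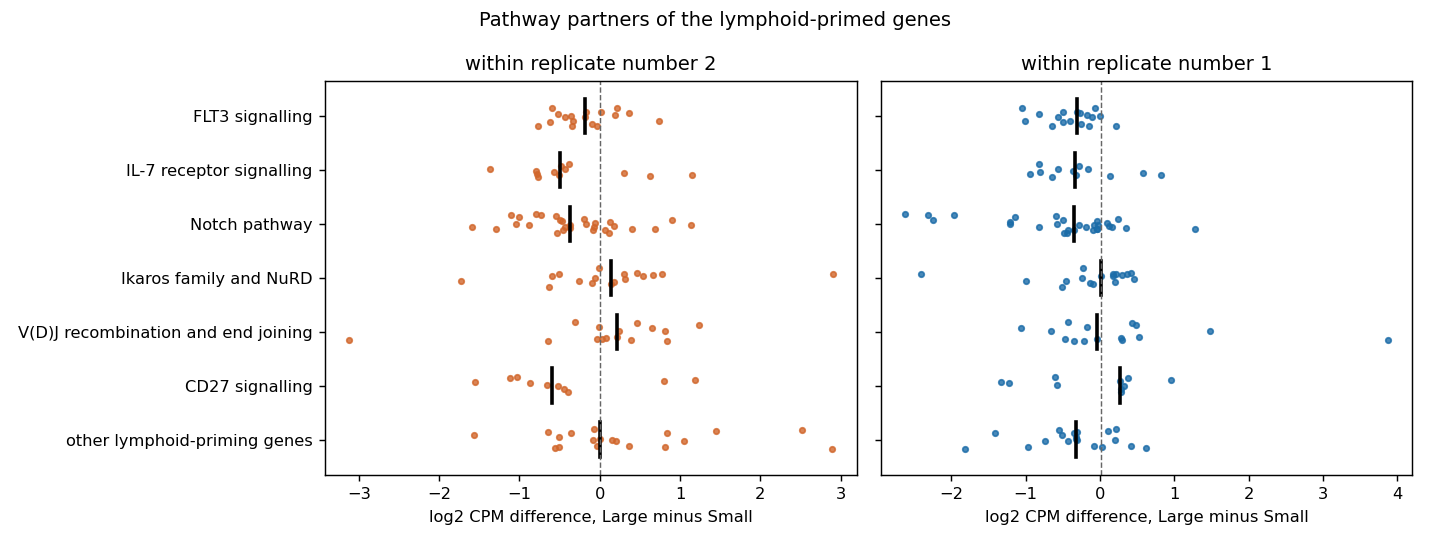
Log2 CPM difference of Large minus Small (horizontal axis, prior count 2) for each tested gene of 7 pathway lists, within replicate number 2 (left) and number 1 (right), with a black bar at each list's median and a dashed line at the median of all tested genes. The bars of the FLT3, interleukin-7 receptor and Notch lists lie left of the dashed line in both panels. Those of CD27 signalling and of V(D)J recombination and end joining change side. That of the other lymphoid-priming genes lies left of the line within number 1 and close to it within number 2.

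The patterns of the genes were compared over the 8 libraries, which share the split by number, as a description. Pearson's r of log2 CPM (n = 8 libraries) was 0.98 between Flt3 and Cd34, 0.95 between Flt3 and Cd27, 0.93 between Satb1 and Notch1 and 0.91 between Dntt and Satb1. Some other pairs were nearly as high, with 0.89 between Flt3 and Notch1 and 0.88 between Cd34 and Satb1. Between Flt3 and Ikzf1, r was -0.08. Among 10132 other tested genes with a mean of at least 5 CPM, the patterns most like Flt3 were those of Jakmip1, Mmp2 and Il1r1 (r of 0.99 or more, 8 libraries). Those most like Cd34 were Bcl2l11, Ubac2 and Ppcdc (r = 0.99, 0.99 and 0.99), and those most like Cd27 were Itga9, Mcl1 and Traf1 (r = 1.00, 0.99 and 0.99).

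For Dntt they were Ldlrad4, Emp1 and Vim (r = 0.95, 0.94 and 0.92), for Satb1 Trpv2, Rxra and Atp10a (r = 0.97, 0.96 and 0.96), and for Notch1 Sidt2, Spata6 and Fam234a (r = 0.98, 0.98 and 0.98). Ikzf1 had the loosest matches, Rab3gap2, Lins1 and Zfp53 (r = 0.92, 0.90 and 0.90), and those of Il7r were Fiz1, Mboat1 and Spata2l (r = 0.97, 0.92 and 0.89). Bcl2l11, which encodes the death factor BIM, had 200, 178, 109 and 117 CPM in Small 2, Medium 2, Large 2 and All 2, against 32.9, 22.0, 24.1 and 26.8 CPM in the groups numbered 1. Mcl1, a survival factor of the BCL2 family, had 895, 774, 606 and 799 CPM in the groups numbered 2, against 400, 422, 287 and 448 CPM in those numbered 1.

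Levels of different genes are compared per length, in TPM. Cd34 was the most abundant of the 8 in every library, at 514 to 838 TPM in the libraries numbered 2 and 171 to 195 TPM in those numbered 1. In number 1, Cd27 came next in each library, at 45.7 to 80.4 TPM, and Flt3 had 9.77 to 24.2 TPM. In number 2, Flt3 had 168 to 337 TPM and Cd27 126 to 217 TPM, with Flt3 above Cd27 in Small, Medium and Large and below it in All. Dntt had 182, 182, 262 and 10.7 TPM in Small 2, Medium 2, Large 2 and All 2, against 29.5, 14.1, 5.25 and 7.82 TPM in the groups numbered 1. Ikzf1 had 24.2 to 33.3 TPM, Satb1 6.05 to 50.1 TPM and Notch1 1.3 to 26.0 TPM, and Il7r was last in every library, at 0.03 to 4.92 TPM. The ranges of Ikzf1, Satb1 and Notch1 overlap, so their order is not beyond their spread over the samples.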

How the data were processed

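Size-gated HSC libraries were sequenced after low-input cDNA synthesis (per the labels' protocols). Tools named in the submitters' processing notes are STAR 2.5.3a, RSEM 1.3.0 and SAMtools 1.3, with the build mm10; the annotation used for counting is not given there. The authors deposited estimated counts per gene, rounded to whole numbers, and log2(TPM + 1) values. Of 50686 IDs, 50376 had a GENCODE M21 symbol. Samples were grouped by their titles. The counts of 16066 genes (filterByExpr, minimum count 10) were TMM-scaled and tested with edgeR 4.0.16 (R 4.3.3; robust quasi-likelihood, group as the only term, all 8 libraries, 4 residual degrees of freedom), with two-sided p-values, Benjamini-Hochberg adjustment over all tested genes and a threshold of 0.05. Differences within a replicate number use log2 CPM with a prior count of 2, and TPM values come from the deposited log2 values. Alternatives were RLE scaling, no filter, a replicate block, DESeq2 1.42.0, limma 3.58.1 on log2(TPM + 1), and each library left out. The code was tested on simulated data. A floor reflects counting error alone, because reads were amplified and carry no molecular identifiers. The 8 genes and the lists were chosen with earlier results of these data known. From each list the text names the 2 tested genes highest in mean CPM and the 2 with the smallest unadjusted p in Large against Small. A gene that this rule or the marker lists would name is not reported here. The text also names, for each of the 8 genes, the 3 genes of nearest pattern. Genes that stand in several pathway lists are named for that. List genes named for being at 0, Hes1, Nrarp and the B-lineage genes in Large 2 were chosen after their values were seen, as were Kit, Ly6a, Slamf1, Mpo, Nkg7, Bcl2l11 and Mcl1 among the genes given with values. HSCs from mice given vehicle, PD or rapamycin were not analysed here.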

Additional observations from a re-analysis of the deposited data

How the results depend on the processing

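The counts of genes past the threshold, 0 with edgeR in all 6 comparisons, stayed at 0 with RLE scaling, with each library left out and with an edgeR replicate block. For Large against Small, Large against Medium, Medium against Small, Small against All, Medium against All and Large against All, they were 55, 58, 73, 69, 48 and 121 with no filter on low counts, 12, 2, 46, 28, 6 and 8 with DESeq2, and 1438, 959, 525, 374, 12 and 1651 with DESeq2 and a replicate block. limma-trend on log2(TPM + 1) called 1 gene each for Large against Small, Large against Medium and Large against All, and 0 for the others. The labels do not say that the numbers pair the libraries. Deviations of same-numbered libraries correlated at 0.358 to 0.439 over 16066 genes, and 7 of 8 libraries correlated best with 1 of their own number, the exception being Large 2. In Large against Small, DESeq2 with the replicate block called Flt3 (log2 -0.88, adjusted p = 0.00124), Cd27 (-0.62, adjusted p = 0.00635) and Notch1 (-1.23, adjusted p = 0.0421), and edgeR with the block called none. DESeq2 with the block also called Cd27 in Large against Medium (-0.63, adjusted p = 0.0078) and Large against All (-0.60, adjusted p = 0.00855) and Flt3 in Small against All (0.81, adjusted p = 0.0128). With no filter, edgeR called Satb1 in Small against All (1.59, adjusted p = 0.0376). Dntt in Small, Medium and Large over All was 2.57, 2.13 and 2.27 with the replicate block in edgeR and 2.44, 1.98 and 2.07 in DESeq2, with none called. The Dntt change in Large against Small reversed with the replicate block in edgeR (-0.31) and DESeq2 (-0.36) and with limma-trend (-0.88). With single libraries left out, the log2 changes of Large over Small ranged from -3.89 to 2.06 for Flt3, -1.27 to 0.93 for Cd34, -1.47 to 0.28 for Cd27, -4.33 to 2.79 for Il7r, -4.04 to 2.19 for Dntt, -1.70 to 0.68 for Satb1, -2.48 to -0.10 for Notch1 and -0.30 to 0.0208 for Ikzf1. That of Dntt in Large over All ranged from -0.62 to 4.91. Where an arm had 1 library left, it was taken to vary like the other groups, and its change also held the difference between the numbers. Over the 8 genes and 6 comparisons, 25 of 288 values under the other settings changed sign and 10 gained a call, and 64 of 384 values with a library left out changed sign. The cause was not tested. Depth limits Il7r most, with 1 or 2 counts in 3 libraries.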
